A study of Homo sapiens with 5 samples.

Results

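The genes described here, most of which build the centrosome and its centrioles, include by symbol alone the antisense transcript CEP83-AS1 and the pseudogene CEP170P1. They are the 50 rows of the deposited count table whose symbol is CEP followed by a number, or is one of a list of further centrosome genes (ASPM, CDK5RAP2, PCM1, PCNT, AKAP9, NIN, NINL, STIL, PLK4, SASS6, CENPJ, CNTLN, CNTROB, ODF2 and OFD1), of 25382 genes in all. They were measured in MDA-MB231, an established human breast cancer line of mesenchymal, triple-negative type, whose mixed cultures were split by shear stress into cells that came off easily and cells that held on. The weakly adherent group has 3 RNA sequencing libraries, dated 6, 12 and 15 March in their titles, and the strongly adherent group has 2, dated 6 and 15 March. All 5 libraries share the line and the medium with serum, and no library of cells kept from shear was analysed here, so an effect of shear and a difference that preceded it cannot be told apart. Nothing in the labels tells if the libraries come from separate cultures, so p-values measure the spread between these libraries, which may be technical.

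The centrosome is the main site from which animal cells grow microtubules. It holds a pair of centrioles inside a cloud of pericentriolar material, which docks the gamma-tubulin rings that start microtubules. The centrioles duplicate once per cell cycle under the kinase PLK4, the material expands before mitosis to form the spindle poles, and in resting cells the older centriole can turn into the base of a cilium.

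Each library held between 19630386 and 21707459 reads in genes. The line's mesenchymal marker VIM lay at 2458 to 2621 CPM (each count as a share of its library's gene reads, scaled by edgeR's TMM factor) in weakly and 2652 and 2746 CPM in strongly adherent cells. The epithelial cadherin CDH1 lay at 1.18 to 1.57 CPM in weakly and 2.07 and 1.27 CPM in strongly adherent cells. Of 6 markers of blood, endothelial and fibroblast cells, CD3E and DCN were at 0 in all libraries, and PTPRC and CDH5 had 0 to 5 reads. The 6 summed to 12.8 to 14.1 CPM, without TMM scaling, in weakly and 11.5 and 8.12 CPM in strongly adherent cells, most of it COL1A1, and their part in the results was not tested. A gene is written as called where the quasi-likelihood test of edgeR gave a p under 0.05 after Benjamini-Hochberg adjustment. By this rule 235 of the 13297 genes tested were higher and 122 lower in weakly adherent cells. Of 6 cell cycle genes in the same libraries, 1 was called higher and 2 lower. MKI67, a proliferation marker, averaged 889 ± 136 CPM in weakly (SD, n = 3) and 457 ± 3.02 CPM in strongly adherent cells (SD, n = 2). Its coding sequence is long, at 9768 bases. The log2 fold change of MKI67 was 0.96 (edgeR adjusted p = 0.0021), and 0.55 (0.046) with each library's trend with coding length removed. The replication genes MCM6 and PCNA had log2 fold changes of -0.62 and -0.41 (edgeR adjusted p = 0.00076 and 0.021). The mitotic cyclin gene CCNB1 (log2 fold change 0.89, adjusted p = 0.052), TOP2A (0.44) and CDK1 (0.18) were not called, and the libraries overlapped for TOP2A and CDK1. What part these cell cycle genes' behaviour has in the values below was not tested, and in bulk RNA more cells of a phase and more RNA per cell cannot be told apart.

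Centrosome and centriole genes were higher in weakly adherent cells or did not differ beyond the test's threshold. Of 48 members with enough reads, 8 were called higher (16.7%, against 1.77% of all genes tested) and 0 lower (against 0.918%). At an unadjusted p under 0.05, 19 were higher (against 7.86% of all genes) and 0 lower (against 6.35%), and DESeq2 called 8 higher (against 2.30% of its genes) and 0 lower (against 1.06%). The 8 were ASPM, AKAP9, CEP350, CEP97, CEP192, CENPJ, PCNT and PCM1. The median log2 fold change of the members, weakly minus strongly adherent, was 0.17, against -0.00054 over all genes tested, and 39 of 48 were positive (81.2%, against 49.8%). In 27 members (56.2%, against 15.5%) all 3 weakly adherent libraries lay above both strongly adherent ones, and in 0 (against 14.5%) all 3 lay below. The antisense transcript CEP83-AS1, with 6 to 15 reads per library, is among the 48, the 39 and the 27. Together the 50 rows took 0.263% to 0.281% of gene counts in weakly adherent libraries and 0.218% and 0.223% in strongly adherent ones. Without ASPM those shares were 0.245% to 0.258%, against 0.212% and 0.216%.

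**Figure D1:**
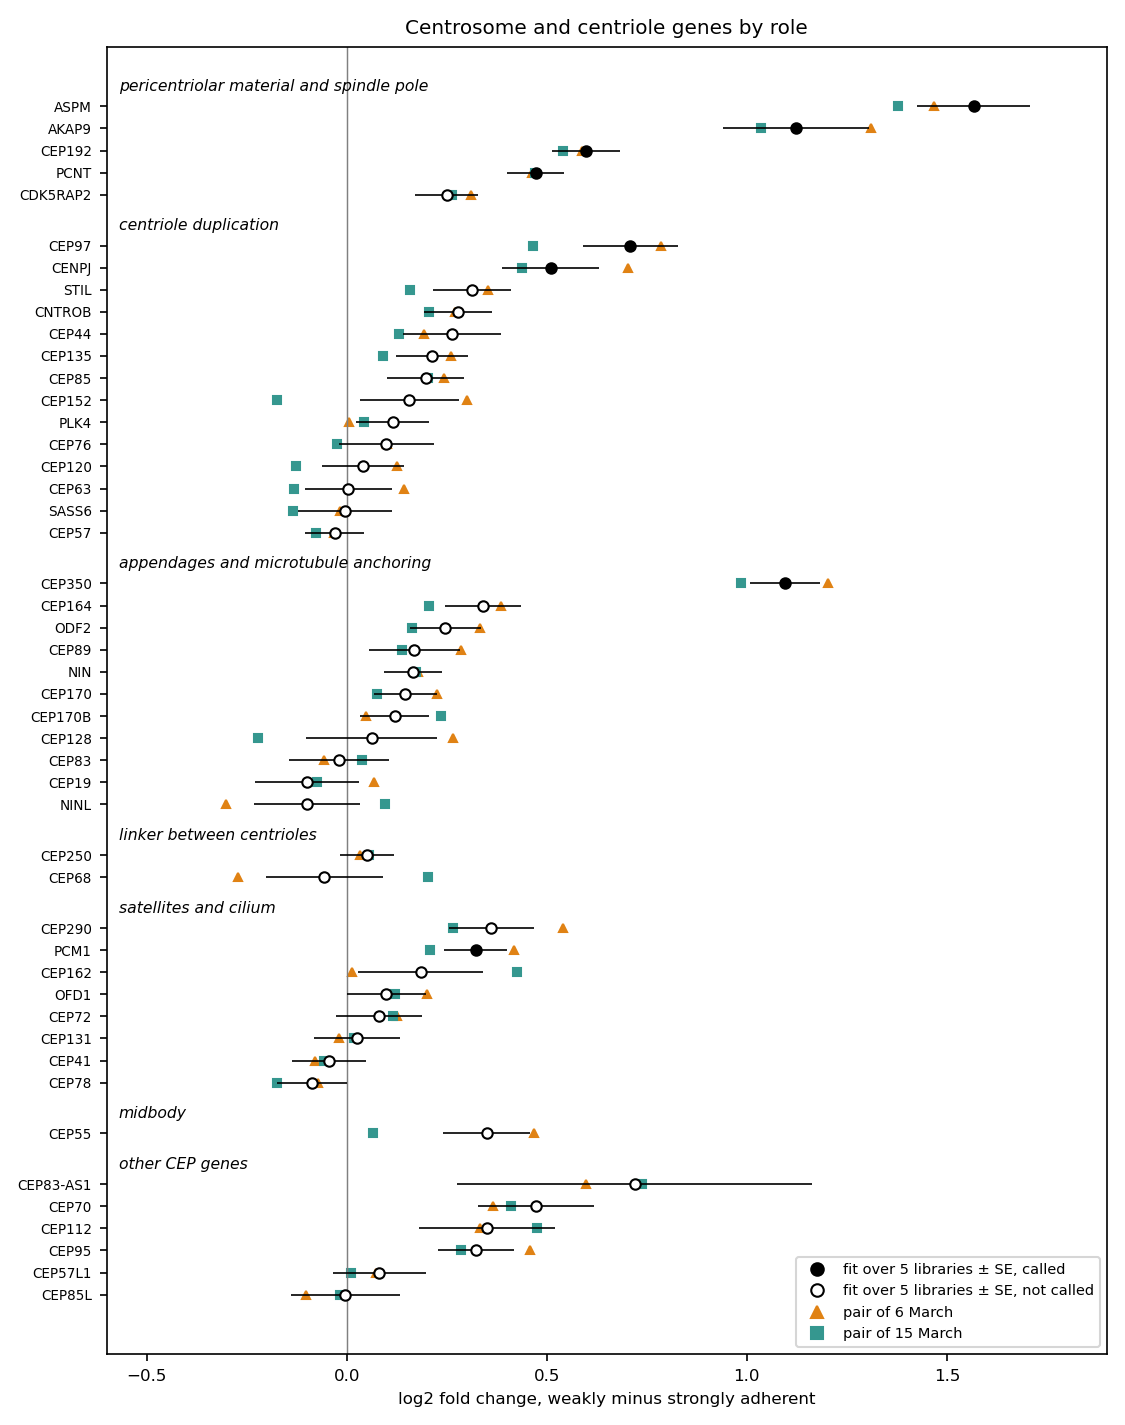
Log2 fold change (weakly minus strongly adherent) of the tested members reported by name, grouped by role. Circles give the fit over 5 libraries with its SE, filled where called. Triangles and squares give the pairs of 6 and of 15 March, 1 library against 1. All 5 genes of the pericentriolar material lie to the right of 0 in both pairs, while the centriole duplication genes run between -0.03 and 0.71.

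The date in the titles pairs 4 of the libraries. In the pair of 6 March the members' median log2 ratio was 0.23 and in that of 15 March 0.13, and 33 members were positive in both pairs (68.8%, against 31.9% of all genes). With the date as a block, 18 members were called higher (37.5%, against 6.20%) and 0 lower (against 5.28%), all 8 genes named above among them. That fit leaves 1 residual degree of freedom, so its p-values, here and below, lean on a variance estimated over many genes. The library of 12 March is alone in its date and has no part in a gene's group difference there. The block's calls thus rest on the pairs of 6 and 15 March. Leaving out the strongly adherent library of 6 March lowered the number of members called higher to 5, while calls over all genes were 78 higher, against 235 with all libraries. Leaving out the weakly adherent library of 15 March gave 10 members, with 239 over all genes. Of the 8 called genes, 4 stayed called whichever library was left out: ASPM, CEP350, CEP192 and PCNT.

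The starts of these genes are shown next for members that represent both kinds of response. ASPM and CEP192 were called, CEP55 is a mitotic member that was not, and CEP350 was called and had none of the motifs searched. Windows of 300 bases, 250 before and 50 after a gene's start, came from RefSeq on GRCh38.p14, with windows for 41 of the 48 tested members, of which 13 have several. They are chr1:197146620-197146919 on the minus strand for ASPM, chr18:12991112-12991411 on the plus strand for CEP192, chr10:93496362-93496661 on the plus strand for CEP55 and chr1:179954560-179954859 on the plus strand for CEP350. The letters run 5′ to 3′ along the gene. Capitals mark matches, on either strand, to the cell cycle homology region of mitotic genes (TTTGAA or TTCGAA), to CCAAT, which the factor NF-Y binds, and to 3 forms of the E2F site (TTTCCCGC, TTTGGCGC or TTTCGCGC).
ASPM: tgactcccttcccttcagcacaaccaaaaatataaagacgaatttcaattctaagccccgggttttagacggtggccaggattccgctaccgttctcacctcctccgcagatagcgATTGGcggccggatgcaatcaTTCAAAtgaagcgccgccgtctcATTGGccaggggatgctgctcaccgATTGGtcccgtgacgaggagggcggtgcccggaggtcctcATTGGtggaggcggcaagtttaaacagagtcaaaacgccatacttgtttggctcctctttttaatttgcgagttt
CEP192: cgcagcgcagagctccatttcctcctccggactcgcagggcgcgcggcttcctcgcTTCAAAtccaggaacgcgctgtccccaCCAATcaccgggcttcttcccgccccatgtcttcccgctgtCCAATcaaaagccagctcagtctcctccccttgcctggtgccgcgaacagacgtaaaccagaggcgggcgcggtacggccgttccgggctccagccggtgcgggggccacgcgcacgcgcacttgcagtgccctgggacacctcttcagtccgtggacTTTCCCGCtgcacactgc
CEP55: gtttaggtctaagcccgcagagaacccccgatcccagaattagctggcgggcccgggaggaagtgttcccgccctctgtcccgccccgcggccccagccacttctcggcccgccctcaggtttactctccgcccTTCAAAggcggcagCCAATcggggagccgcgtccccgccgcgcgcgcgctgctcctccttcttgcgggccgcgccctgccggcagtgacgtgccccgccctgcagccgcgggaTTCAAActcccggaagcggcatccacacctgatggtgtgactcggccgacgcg
CEP350: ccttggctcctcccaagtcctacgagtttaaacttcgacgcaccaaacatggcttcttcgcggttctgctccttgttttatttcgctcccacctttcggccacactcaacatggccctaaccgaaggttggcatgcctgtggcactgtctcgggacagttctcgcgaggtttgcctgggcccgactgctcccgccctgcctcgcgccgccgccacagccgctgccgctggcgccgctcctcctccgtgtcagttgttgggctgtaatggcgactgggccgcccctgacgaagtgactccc
The ASPM window held 4 CCAAT matches, at 134, 90, 65 and 25 bases before the start, and 1 cell cycle homology match at 113 bases before it. That of CEP192 held 1 cell cycle homology match, 2 CCAAT matches and 1 E2F match, and that of CEP55 held 2 cell cycle homology matches and 1 CCAAT match. Of the members' 58 windows, 18 held a cell cycle homology match (31.0%, against 11.8% of 14230 windows of tested genes). CCAAT was in 26 (44.8%, against 34.4%) and an E2F form in 8 (13.8%, against 4.08%). Of the 8 windows of called members, 3 held a cell cycle homology match, 5 a CCAAT match and 1 an E2F form. The called genes PCNT and CEP97 had CCAAT matches and no cell cycle homology match. CEP57, which was not called (log2 fold change -0.03), had both. CENPJ and PCM1, also called, had no window. A match is a run of letters and shows no binding. Windows of a gene with several starts can overlap, so that a single site can count more than once, as for an E2F match of CEP112 and a cell cycle homology match of CEP76. Matches of different motifs may also share letters.

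Of 5 scaffolds of the pericentriolar material and spindle pole, 4 were called higher (against 1.77% of all genes tested). In all 5 the weakly adherent libraries lay above the strongly adherent ones (against 15.5%). The median coding length of the 5 was 10008 bases. Of all 346 tested genes with 6 kb or more of coding sequence, 33.2% were called higher. With each library's trend with coding length removed, 2 of the 5 were called higher (against 0.940% of all genes). ASPM, which sits on microtubule minus ends at spindle poles, had 170.2, 232 and 180.5 CPM in weakly adherent cells of 6, 12 and 15 March. It had 61.5 and 69.5 CPM in strongly adherent cells of 6 and 15 March. The weakly adherent library of 12 March was the highest, and the lowest weakly adherent library was over the highest strongly adherent one by a wide margin. The log2 fold change was 1.57 (SE 0.14, edgeR adjusted p = 0.0014), with 1.47 in the pair of 6 March and 1.38 in that of 15 March. ASPM thus made up 6.10% to 8.23% of the members' reads in weakly adherent libraries, against 2.78% and 3.16% in strongly adherent ones.

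AKAP9, a large scaffold that anchors gamma-tubulin rings and protein kinase A at the centrosome and the Golgi, had 42.6, 45.4 and 53.6 CPM in weakly adherent cells. Strongly adherent cells had 17.2 CPM on 6 March and 26.1 CPM on 15 March. Both libraries of 15 March were higher than those of 6 March in their group, and the groups did not overlap. The log2 fold change was 1.12 (SE 0.18, edgeR adjusted p = 0.023), and the call ended without the weakly adherent library of 12 March (adjusted p = 0.064).

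CEP192, which gathers pericentriolar material and brings the kinases AURKA and PLK1 to it, had 59.2, 61.6 and 55.7 CPM in weakly adherent cells. It had 39.4 and 38.3 CPM in strongly adherent cells. The libraries of a group lay close together, and the log2 fold change was 0.60 (SE 0.08, edgeR adjusted p = 0.0021).

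PCNT, pericentrin, which forms the core of the material around the centriole, had 106.7, 108 and 106.7 CPM in weakly adherent cells. It had 77.4 and 77.1 CPM in strongly adherent cells. Both groups were even, and the log2 fold change was 0.47 (SE 0.07, edgeR adjusted p = 0.0034), with 0.46 and 0.47 in the pairs of 6 and 15 March. CDK5RAP2, which activates gamma-tubulin rings at this material, had 125, 110.1 and 114 CPM in weakly and 100.4 and 95.1 CPM in strongly adherent cells. Its groups did not overlap, but it was not called (log2 fold change 0.25, SE 0.08, edgeR adjusted p = 0.14, or 0.00055 with the date block).

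**Figure D2:**
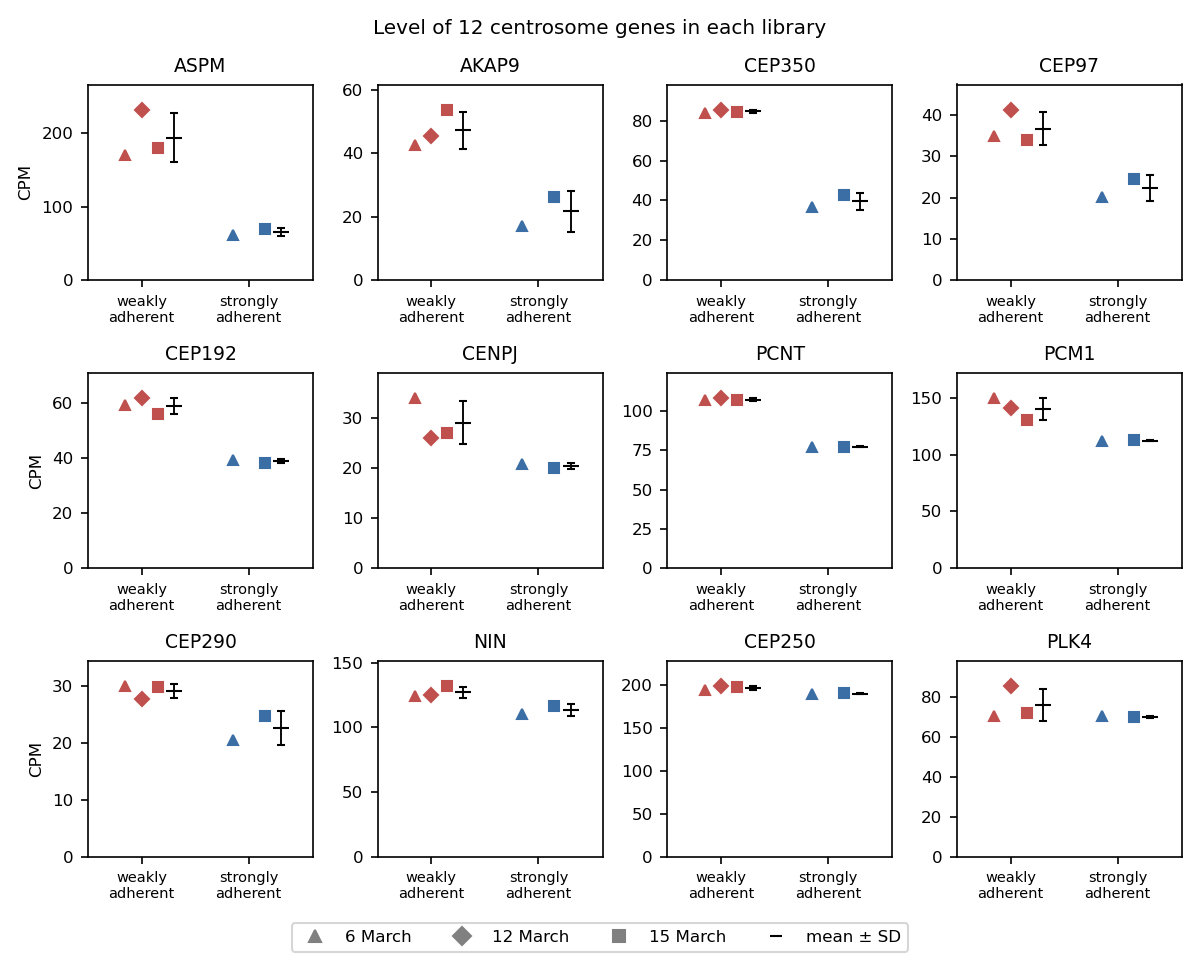
CPM of 12 members in each library, weakly adherent on the left and strongly adherent on the right of each panel, with marker shape for the date and mean ± SD beside them. CEP350 stands at 84.0 to 85.3 CPM in weakly and at 36.5 and 42.6 CPM in strongly adherent cells, while CEP250 and PLK4 differ little between the groups.

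Of 14 genes of centriole duplication, 2 were called higher (14.3%, against 1.77% of all genes tested) and 0 lower (against 0.918%). Their median log2 fold change was 0.18. CEP97, which caps the growing end of centrioles and holds back cilium formation, had 34.8, 41.2 and 34.0 CPM in weakly adherent cells, against 20.2 and 24.6 CPM in strongly adherent cells. All weakly adherent libraries were higher, and the log2 fold change was 0.71 (SE 0.12, edgeR adjusted p = 0.0067). The adjusted p was 0.091 without the strongly adherent library of 6 March. CENPJ, a tubulin-binding protein that sets centriole length, had 34.0, 26.1 and 27.0 CPM in weakly adherent cells, against 20.9 and 19.95 CPM in strongly adherent cells. The weakly adherent library of 6 March was the highest, and the log2 fold change was 0.51 (SE 0.12, edgeR adjusted p = 0.046). With 1 library left out its adjusted p ran from 0.044 to 0.21, and it was above the threshold in all cases but that without the weakly adherent library of 12 March.

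The genes at the start of duplication were not called. PLK4, the kinase that triggers it, had 70.9, 85.5 and 72.1 CPM in weakly adherent cells and 70.6 and 70.0 CPM in strongly adherent cells. The groups did not overlap, by a narrow margin, and the weakly adherent library of 12 March stood above the rest. The log2 fold change was 0.12 (SE 0.09, edgeR adjusted p = 0.68). SASS6, the cartwheel protein that PLK4 and STIL bring in, had 25.6, 31.7 and 28.9 CPM in weakly and 25.8 and 31.7 CPM in strongly adherent cells, which overlapped almost fully. Its log2 fold change was -0.0036 (SE 0.12). STIL, the PLK4 substrate, had 116, 116 and 94.2 CPM in weakly and 90.9 and 84.4 CPM in strongly adherent cells. It was not called (log2 fold change 0.31, SE 0.10, edgeR adjusted p = 0.14, or 0.0032 with the date block).

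CEP152, CEP63 and CEP57, of a ring that takes part in recruiting PLK4, were not called. CEP152, the ring's PLK4 docking protein, had a log2 fold change of 0.16 (SE 0.12). It had 0.30 in the pair of 6 March and -0.17 in that of 15 March. Its partners CEP63 and CEP57 had 0.0033 (SE 0.11) and -0.03 (SE 0.07). The centriole wall and elongation genes CEP135, CEP44 and CEP120 had 0.21, 0.26 and 0.04, and CEP76, which limits duplication, had 0.10. CNTROB, a daughter centriole protein, and CEP85, which aids STIL, had 0.28 and 0.20 and were called with the date block (edgeR adjusted p = 0.0093 and 0.018). These values were not past the threshold without the block.

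Of 11 genes of centriole appendages and microtubule anchoring, 1 was called higher (9.09%, against 1.77% of all genes) and 0 lower (against 0.918%). Their median log2 fold change was 0.15. CEP350, which holds microtubules at the centriole, had 84.0, 85.3 and 84.5 CPM in weakly adherent cells. It had 36.5 and 42.6 CPM in strongly adherent cells. The 3 weakly adherent libraries were nearly equal and all above the others. The log2 fold change was 1.10 (SE 0.09, edgeR adjusted p = 6.4e-05), the smallest adjusted p among the members. It lay between 0.99 and 1.22 when 1 library was left out.

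CEP164, the distal appendage protein with which cilium formation begins, had 109.6, 108 and 89.8 CPM in weakly adherent cells, against 83.8 and 77.9 CPM in strongly adherent cells. The groups did not overlap, and it was not called (log2 fold change 0.34, SE 0.09, edgeR adjusted p = 0.087, or 0.00045 with the date block). ODF2, which is needed for appendages, had a log2 fold change of 0.25 (edgeR adjusted p = 0.20, or 0.0037 with the date block). The subdistal appendage proteins NIN, CEP170 and CEP128 had log2 fold changes of 0.16, 0.15 and 0.06, and CEP170's relative CEP170B had 0.12. The distal appendage genes CEP83 and CEP89 had -0.02 and 0.17. CEP19 and the ninein-like gene NINL, at 9.41 ± 0.653 CPM in weakly (SD, n = 3) and 10.1 ± 0.969 CPM in strongly adherent cells (SD, n = 2), both had -0.10. CEP170 had 1551 to 1796 reads per library, and its near copy CEP170P1, a pseudogene, had 1 to 4. How reads that match both were counted is not given, so the level of CEP170 is uncertain.

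Of the linker that ties both centrioles together, 2 genes were tested and 0 were called (against 1.77% higher and 0.918% lower over all genes). CEP250, also called C-NAP1 and the main linker protein, had 195, 199 and 198 CPM in weakly adherent cells. It had 190.3 and 190.4 CPM in strongly adherent cells. The groups did not overlap, but all 5 libraries were within a narrow range, and the log2 fold change was 0.05 (SE 0.07, edgeR adjusted p = 0.85). CEP68, another linker protein, had 7.17, 7.41 and 8.32 CPM in weakly and 8.66 and 7.23 CPM in strongly adherent cells, which overlapped (log2 fold change -0.06, SE 0.15). CNTLN, a linker partner of CEP250, was listed at 0 in all 5 libraries. A count of 0 allows up to 0.138 to 0.153 CPM, at 3 reads per library and for counting error only, and this limit holds only if the authors' annotation let reads count for CNTLN, which is not given in the sources used here.

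Of 9 genes of centriolar satellites and the cilium, 1 was called higher (11.1%, against 1.77% of all genes) and 0 lower (against 0.918%). Their median log2 fold change was 0.08. PCM1, which builds the satellite granules around the centrosome, had 149, 141 and 130.2 CPM in weakly adherent cells, against 112 and 113 CPM in strongly adherent cells. The log2 fold change was 0.32 (SE 0.08, edgeR adjusted p = 0.049). This call ended when the strongly adherent library of 6 March (adjusted p = 0.27) or of 15 March (0.19), or the weakly adherent library of 6 March (0.097) or of 12 March (0.16), was left out. CEP290, the transition zone protein at the base of the cilium, had 29.8, 27.6 and 29.7 CPM in weakly and 20.5 and 24.7 CPM in strongly adherent cells. It was not called (log2 fold change 0.36, SE 0.11, edgeR adjusted p = 0.11, or 0.00045 with the date block). The satellite genes OFD1, CEP72 and CEP131 had log2 fold changes of 0.10, 0.08 and 0.03. The cilium genes CEP162, CEP41 and CEP78 had 0.19, -0.04 and -0.09.

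CEP55, which recruits the membrane-cutting ESCRT machinery to the midbody at the end of mitosis, had 221, 229 and 175 CPM in weakly adherent cells. It had 159 and 167 CPM in strongly adherent cells. The weakly adherent library of 15 March lay close to the strongly adherent ones, and CEP55 was not called (log2 fold change 0.35, SE 0.11, edgeR adjusted p = 0.15, or 0.0012 with the date block). The pair of 6 March gave 0.47 (95% interval 0.40 to 0.53) and that of 15 March 0.06 (-0.0011 to 0.13), by exact binomial intervals that cover counting error only. Relative to transcript length CEP55 had the highest level of the members, at 79.0 CPM per kb of transcript in weakly and 62.0 in strongly adherent cells. ODF2 came next with 35.8 and 30.2 CPM per kb, and the lowest were CEP85L (1.13 in both groups) and CEP162 (1.25 and 1.11). Which transcript the cells used is not known.

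Among the remaining CEP genes 0 of 6 were called (against 1.77% higher and 0.918% lower over all genes). CEP70, which helps gamma-tubulin reach the centrosome, had 14.9, 16.2 and 12.5 CPM in weakly and 11.6 and 9.36 CPM in strongly adherent cells (a log2 fold change of 0.47 with SE 0.15, at an adjusted p of 0.13 in edgeR, or 0.018 with the date block). CEP95 had 39.0, 33.8 and 36.3 CPM, against 28.3 and 29.8 CPM (log2 fold change 0.32 with SE 0.09, edgeR adjusted p = 0.11, or 0.00038 with the date block). In both the groups did not overlap. CEP112, CEP57L1 and CEP85L had log2 fold changes of 0.35, 0.08 and -0.0039. The antisense transcript CEP83-AS1, at 0.43 to 0.68 CPM in weakly and 0.28 and 0.41 CPM in strongly adherent cells, had 0.72 (SE 0.44). Whether the counting used strand is not stated, so its reads and those of CEP83 cannot be told apart.

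The members called were mostly those with long coding sequences. The 47 members with a coding length had a median of 2910 bases, against 1437 bases over all tested genes. Of the 9 members with a coding sequence of 6 kb or more, 6 were called higher (66.7%, against 33.2% of all 346 tested genes of that length), with a median log2 fold change of 0.47 against 0.30. Of the 38 shorter ones, 2 were called (5.26%, against 0.909%), CENPJ and CEP97, with a median of 0.12 against -0.0061. Across the 47 members, which share libraries, log2 fold change and coding length had a Spearman rho of 0.50, against 0.16 across all 12232 tested genes with a length. With transcript GC content rho was -0.20 across the members and -0.17 across all tested genes.

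With each library's trend with coding length removed, 4 members were called higher (against 0.940% of all genes) and 0 lower (against 1.05%). They were ASPM (log2 fold change 1.13, edgeR adjusted p = 0.0053), CEP350 (0.71, 0.00034), CEP97 (0.70, 0.0018) and AKAP9 (0.62, 0.019). In that fit PCNT had 0.05 (adjusted p = 0.92), PCM1 0.12 (0.67), CEP290 0.08 (0.87), CEP192 0.31 (0.12) and CENPJ 0.44 (0.065). CEP250 turned to -0.23 (0.19). With the date block as well, 13 members were called higher (against 4.47%), and 1 lower (against 5.23%), which was CEP250 (-0.24, edgeR adjusted p = 0.0084).

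**Figure D3:**
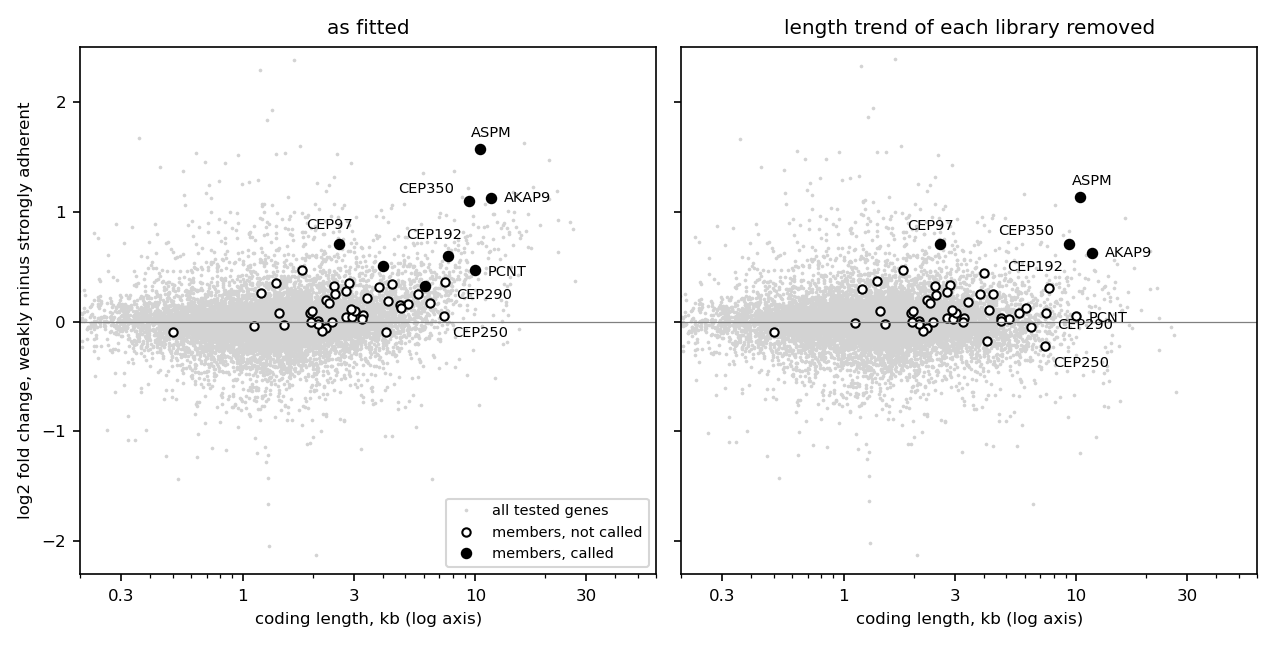
Log2 fold change against coding length in kb on a log axis, for the tested genes with a coding length (grey) and the 47 members among them (circles, filled where called), as fitted on the left and with each library's length trend removed on the right. ASPM, CEP350, AKAP9 and CEP97 stay at 0.62 or higher on the right, while PCNT comes to 0.05 and CEP250 to -0.23.

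Levels within the weakly adherent group were even for some members and uneven for others. PCNT, CEP350 and CEP250 had nearly the same level in all 3. CEP55 and STIL were lower in that of 15 March than in those of 6 and 12 March, and STIL was singled out after its values were seen. The mitotic genes CCNB1, AURKA and NEK2 were likewise lowest, among weakly adherent libraries, in that of 15 March. CCNB1 had 596, 589 and 401 CPM in weakly adherent cells of 6, 12 and 15 March and 306 and 265 CPM in strongly adherent cells. AURKA had 419, 403 and 269 CPM, against 214 and 166 CPM. Over the 5 libraries, whose split into 2 groups they share, the log2 CPM of ASPM correlated most closely among members with CEP192, PCNT and CEP350 (Pearson r 0.98 in each). Among tested genes averaging 2 CPM or more the closest were ZNF839, UGGT1, KNTC1, JMJD1C and PHF3 (r 0.996 to 0.999). Of these 5, UGGT1 and JMJD1C were called, with log2 fold changes of 0.35 and 0.42.

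**Figure D4:**
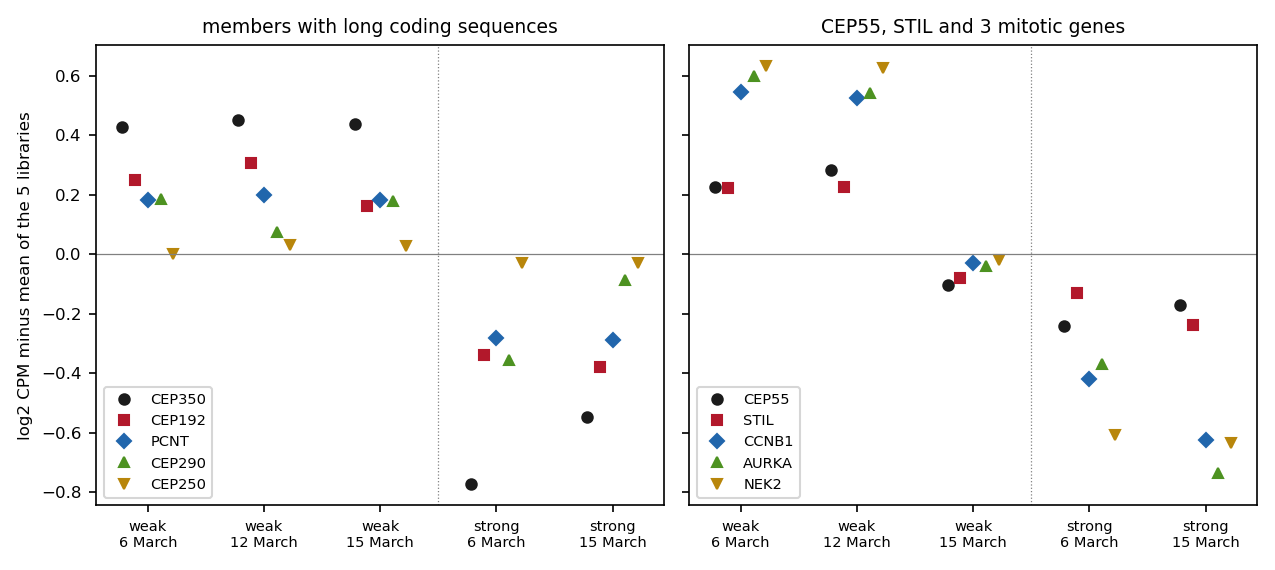
Log2 CPM of each gene minus its mean over the 5 libraries, weakly adherent libraries left of the dotted line. CEP350 and PCNT are nearly level within the weakly adherent group. CEP55, STIL, CCNB1, AURKA and NEK2 lie near 0 in the weakly adherent library of 15 March.

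Genes that work with these proteins but are named otherwise were counted in 3 lists. The gamma-tubulin rings and augmin start microtubules at the centrosome and in the spindle. Of their 19 genes, 0 were called higher (against 1.77% of all genes tested) and 0 lower (against 0.918%). Of the 19, 14 had a negative log2 fold change (73.7%, against 50.2%), with a median of -0.07. In 6 all weakly adherent libraries lay below the strongly adherent ones (31.6%, against 14.5%), and in 1 above (5.26%, against 15.5%). TUBG1, gamma-tubulin itself, had 136, 130.3 and 126 CPM in weakly and 149 and 147 CPM in strongly adherent cells (log2 fold change -0.18 with SE 0.07, not called, edgeR adjusted p = 0.26). The augmin subunit HAUS5 had -0.27 (SE 0.08, adjusted p = 0.15), and with the date block 3 of the 19 were called lower (against 5.28%) and 0 higher (against 6.20%).

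Of 32 other centriole, linker, spindle pole and satellite genes, 1 was called higher (3.1%, against 1.77%) and 0 lower (against 0.918%). Their median log2 fold change was 0.15, and 24 were positive (75.0%, against 49.8%). The called gene was CKAP5, a microtubule polymerase of spindle poles, at 714, 630.5 and 549 CPM in weakly and 438 and 392 CPM in strongly adherent cells. Its log2 fold change was 0.61 (SE 0.11, edgeR adjusted p = 0.015), with adjusted p up to 0.10 with 1 library left out and 0.094 with the length trend removed. SCLT1, a distal appendage gene, had 0.59 (adjusted p = 0.11). With the date block 7 of the 32 were called higher (against 6.20%) and 0 lower (against 5.28%). Dropping the 15 March library of weakly adherent cells gave 4 called higher (239 over all genes), and dropping that of 12 March gave 0 (141 over all genes).

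Among 12 centrosome kinases, cell cycle kinases and the protease ESPL1, 1 was called higher (against 1.77% of all genes) and 1 lower (against 0.918%). NEK2, which loosens the centriole linker before mitosis by acting on CEP250, had 116, 115 and 73.6 CPM in weakly adherent cells, against 49.0 and 48.0 CPM in strongly adherent cells. Its log2 fold change was 1.06 (SE 0.20, edgeR adjusted p = 0.040), while that of CEP250 was 0.05. The call on NEK2 ended with 1 library left out (adjusted p up to 0.35). PLK2, a relative of PLK4, had 382, 335 and 357 CPM in weakly and 465 and 463 CPM in strongly adherent cells (log2 fold change -0.38 with SE 0.07, edgeR adjusted p = 0.020, up to 0.15 with 1 library left out). With the date block 5 of the 12 were called higher (against 6.20% of all genes) and 3 lower (against 5.28%). Dropping the 15 March library of weakly adherent cells gave 5 called higher and 1 lower, where all genes gave 239 and 71. Dropping that of 12 March, or either strongly adherent one, gave 0 in both directions. Over all genes those fits called 141 higher and 58 lower without 12 March. With strongly adherent cells of 6 March dropped they called 78 higher and 30 lower, and with those of 15 March dropped 164 higher and 51 lower.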

How the data were processed

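RNA of 3 weakly and 2 strongly adherent samples was read as 50 bp single ends from stranded TruSeq libraries, per the labels' protocols. The tools listed are STAR, HTSeq, DESeq2, cutadapt and FastQC, with no versions or order, and the build is hg19, per the submitters' processing notes. Annotation and strand setting: not given in the sources used here. The authors deposited raw counts per gene symbol and log2 values. In the deposited log2 table each value is the log2 of a count over its size factor, plus 1, within 0.00052 reads. The 5 HTSeq total rows stayed out.

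Genes were tested on the deposited counts with edgeR 4.0.16 in R 4.3.3 (TMM, filterByExpr, robust quasi-likelihood F test, Benjamini-Hochberg adjustment over 13297 genes), with 3 residual degrees of freedom. SEs follow from the fold change and F. Members, lists and tests were chosen with earlier results of these data known. Named members are those called, the pair with the smallest p in each role, the 3 most abundant and ASPM, PLK4, PCNT, CEP290, CEP192, CEP55, PCM1 and CDK5RAP2. Other members are given to complete each role (1 tested member enters the counts and is not reported here), and from the other lists called genes and the pair with the smallest p.

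Libraries of a shared date were taken as pairs, since the titles give it. Their deviations from group means correlated at 0.34 (6 March) and 0.20 (15 March). The unpaired 12 March library correlated at 0.16 with the strongly adherent library of 15 March and -0.16 with that of 6 March. With 2 libraries in that group, their deviations are exact opposites, so these values mirror each other. For the same reason the pairs of 6 and 15 March are not independent checks, and that on 15 March is weak. Replicates of a group differed by more than sampling noise, with chi-squares of 7.49 to 12.6 per degree of freedom. Alternatives were DESeq2 1.42.0, limma 3.58.1, other filters and scalings, the date block and each library left out. Coding lengths came by symbol from GENCODE 29 (transcript with the longest coding sequence), for 92.0% of tested genes, and their trend was removed per library with a spline of 5 degrees of freedom. GC trends were added after the data were seen. The fits were tried on simulated counts without a date effect, which cannot show how the date block's p-values behave in these libraries.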

Additional observations from a re-analysis of the deposited data

How the results depend on the processing

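Depth limits low members such as CEP83-AS1, and with 2 strongly adherent libraries each of them weighs heavily. The number of members called higher was 8. With the date as a replicate block it was 18 in edgeR and 16 with the date as a random effect in limma-voom. It was 4 with the coding length trend removed, 13 with the replicate block as well, 4 with the coding length and GC trends removed and 14 with the replicate block as well. Leaving out 1 library gave 5 to 10, the fewest with the strongly adherent one of 6 March left out. The number called lower was 0, or 1 with the replicate block and either the length trend or both trends removed. The members' median log2 fold change of 0.17 was 0.089 and 0.10 (replicate block) with the length trend removed, 0.063 and 0.10 with both trends removed, and 0.15 to 0.22 with 1 library left out. Over all genes, 235 higher and 122 lower calls compare with 825 and 702 with the replicate block in edgeR and 670 and 538 in limma-voom. With the length trend removed 125 were higher, or 595 higher and 696 lower with the block. With both trends removed 133 were higher, or 772 higher and 916 lower with the block. Lower calls were 203 without a filter on low counts and 194 with the GC trend removed. With 1 library left out, higher calls ran from 78 to 242 and lower calls from 30 to 113. CEP250 turned to -0.23 (length), -0.24 (length with block), -0.22 (both trends) and -0.25 (both with block), and CEP68 ran from -0.18 to 0.080 with 1 library left out, the highest being that without strongly adherent cells of 6 March. The causes were not tested. Among values of the 17 named members and 6 other named genes with 1 library left out, 93 kept their direction and side of the threshold, 18 lost the call, 3 gained one and 1 reversed. Under other settings 255 kept both, 32 lost the call, 31 gained one and 4 reversed.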

Other observations

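Some members differed between the pairs of 6 and 15 March by more than counting error, with 1 library against 1 in each pair and no test of the difference. CEP152, the PLK4 docking protein, had a log2 ratio of 0.30 (95% exact binomial interval 0.13 to 0.48) on 6 March and -0.17 (-0.35 to 0.0012) on 15 March. The subdistal appendage gene CEP128 had 0.26 (0.04 to 0.49) and -0.22 (-0.47 to 0.03). PCM1 had 0.42 (0.34 to 0.50) and 0.21 (0.13 to 0.29), STIL 0.35 (0.27 to 0.44) and 0.16 (0.07 to 0.25), and ODF2 0.33 (0.26 to 0.41) and 0.16 (0.08 to 0.24). CEP170B went the other way, with 0.05 (-0.04 to 0.14) and 0.24 (0.14 to 0.33). Besides CEP55 these were the members whose intervals for the 2 dates did not overlap. The intervals cover counting error only, not the spread between cultures. Over all tested genes, replicates of a group also differed by more than sampling noise. The share of all genes whose intervals did not overlap is not given here, so such differences are not shown to be particular to the members.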
